A study of Mus musculus with 3 samples.

Results

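The family of miR-15, miR-16, miR-195 and miR-497 is a group of microRNAs (miRNAs), short RNAs that guide Argonaute proteins to messenger RNAs and lower their output, whose 5p strands share 1 seed, the stretch at the 5′ end that pairs with targets. Of 1915 mature mouse miRNAs listed, 7 strands were taken by name, mmu-miR-15a-5p, mmu-miR-15b-5p, mmu-miR-16-5p, mmu-miR-195a-5p and mmu-miR-497a-5p with the 3p strands mmu-miR-15a-3p and mmu-miR-15b-3p. All 7 were in the tables; the prefix mmu, for mouse, is left off below. They were read in exosomes, vesicles shed into culture medium, from C57BL/6 wild type bone-marrow-derived macrophages. Marrow cells had been kept with M-CSF, a macrophage growth factor, for 24 h, and the vesicles were pelleted from medium conditioned for 72 h with exosome-free serum. There was 1 group with 3 libraries, titled CHMP1 to CHMP3 and called libraries 1, 2 and 3, so no treatment, genotype or parent cell could be compared. The labels do not tie the libraries to separate cultures or animals. SDs and the p-values of 5p against 3p strands therefore cover the spread between libraries alone, and that spread may be technical. The chi-square p-values set differences between libraries against counting error only.

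Depth was 3008995, 2489984 and 3208617 miRNA counts in libraries 1, 2 and 3. Levels are counts per 1000000 miRNA counts (CPM), at which 3 counts, the upper limit for a count of 0, came to between 0.935 and 1.20 CPM. Intervals and this limit cover counting error only. Library 1 stood apart, with a Pearson r of 0.91 and 0.89 to libraries 2 and 3 over 472 miRNAs on the log2(CPM + 1) scale, against 0.97 between libraries 2 and 3; these are across miRNAs, which are not independent. Of 6 macrophage and myeloid markers, 5 had counts in all libraries, while the macrophage-lineage miR-511-3p had 10, 2 and 0 counts. All 6 summed to 3.38%, 3.96% and 3.86% of counts, led by miR-146a-5p. The sum hides differences between single markers. The haematopoietic miR-142a-3p stood at 42.9, 1364 and 819 CPM, and the inflammatory miR-155-5p at 74.8, 2388 and 829 CPM. Both were far lower in library 1. miR-142a-5p, at 292, 818 and 390 CPM, was also lowest there, but nearer to library 3. The other markers did not share this drop on the CPM scale. miR-223-3p was lower in library 1 than in library 2 but slightly higher than in library 3. miR-146a-5p was nearly level, and miR-511-3p was highest in library 1.

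Members of this family are known to repress cyclins and the survival protein BCL2, and so to hold back division and favour cell death. In the mouse miR-15a and miR-16-1 form a cluster in the noncoding gene Dleu2, miR-15b and miR-16-2 form another in Smc4, a gene of the condensin complex, and miR-195a and miR-497a form the third. A hairpin yields a 5p and a 3p strand, of which usually one is kept and the other degraded. miR-16 is abundant in red blood cells and plasma as well as in many nucleated cells.

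The mature strands are shown because the whole report turns on which of them can be told apart. All sequences are from RefSeq (build GRCm38.p6, the assembly known as mm10), written 5′ to 3′ with bases 2 to 8, the seed, in capitals. The 5p strands share the seed AGCAGCA and are alike through base 9:
miR-15a-5p: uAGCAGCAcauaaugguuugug
miR-15b-5p: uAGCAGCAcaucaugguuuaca
miR-16-5p: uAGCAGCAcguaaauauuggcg
miR-195a-5p: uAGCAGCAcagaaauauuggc
miR-497a-5p: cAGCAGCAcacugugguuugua
Counted from base 1 with no gaps, miR-15a-5p and miR-15b-5p differ at 4 of 22 bases (A12C, G20A, U21C and G22A, with the base of miR-15a-5p first). The closest pair is miR-16-5p and miR-195a-5p, with 2 differences in 21 bases (G10A and U11G, with the base of miR-16-5p first). The 3p strands share no seed with these or with each other:
miR-15a-3p: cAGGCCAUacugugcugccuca
miR-15b-3p: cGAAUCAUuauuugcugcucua

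The strands of miR-15a lie on chromosome 14, minus strand, the 5p at 61632075 to 61632096 and the 3p at 61632038 to 61632059, in an intron of Dleu2. Those of miR-15b lie on chromosome 3, plus strand, the 5p at 69009775 to 69009796 and the 3p at 69009813 to 69009834, in an intron of the protein-coding gene Smc4. The miR-16-5p sequence is encoded in both introns, on chromosome 14 at 61631936 to 61631957 and on chromosome 3 at 69009918 to 69009939, so its counts cannot be split between the genes. miR-497a-5p and miR-195a-5p lie on chromosome 11, plus strand, at 70234730 to 70234751 and 70235062 to 70235082, where GENCODE M21 has no host gene on that strand.

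miR-16-5p made up most of the family counts in these vesicles. Together the 7 strands took 0.481%, 0.366% and 0.344% of miRNA counts in libraries 1, 2 and 3 (Wilson 95% intervals 0.473 to 0.488, 0.359 to 0.374 and 0.338 to 0.351), a mean of 0.397% ± 0.0732 (SD, n = 3) and 0.355% without library 1. Among the counts of the 5 strands with the shared seed, miR-16-5p held 93.4%, 84.4% and 89.0%. miR-15b-5p held 5.46%, 13.8% and 9.92%, and miR-15a-5p 0.973%, 0.862% and 0.448%. The share of miR-16-5p was therefore highest in library 1 and that of miR-15b-5p lowest there, and the intervals of each did not overlap between any 2 libraries.

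**Figure D1:**
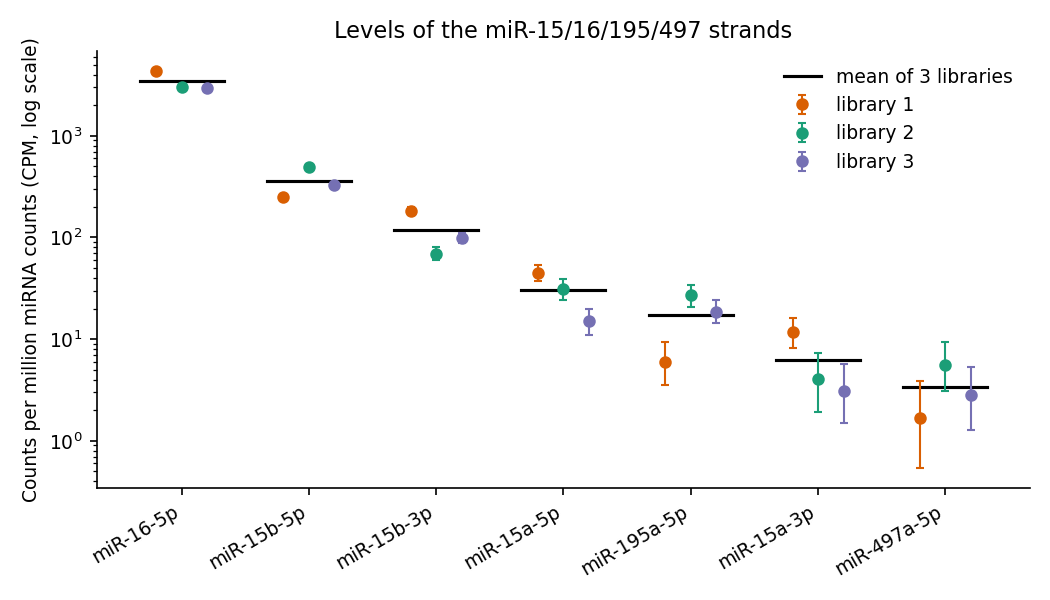
Level of each strand in CPM on a log axis, with 1 point per library, exact Poisson 95% intervals (counting error only) and the mean of the 3 libraries as a bar. miR-16-5p lies near 3437 CPM, above miR-15b-5p at 359 CPM, and the strands from miR-15a-5p downward overlap with their neighbours.

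miR-16-5p, the strand that both clusters make, was at 4307, 3029.7 and 2973 CPM in libraries 1, 2 and 3, ranking 35, 38 and 36 of all listed miRNAs. On this scale its level was highest in library 1 and nearly the same in the others. The order depends on scaling, since with TMM factors, described below, it was lowest in library 1. The mean was 3437 ± 755 CPM (SD, n = 3). Its coefficient of variation of 22.0% exceeded that of 41 of the 472 miRNAs averaging 1 CPM or more, whose median was 65.3%. miR-16 is also used as a sign of red cell RNA, and the 5 red cell markers read (miR-451a, both miR-486-5p strands, which carry identical counts, and both miR-144 strands) summed to 145, 37.8 and 19.9 CPM. With the identical miR-486 pair counted once, the sum was 90.4, 28.1 and 15.6 CPM. All 5, that pair included, were highest in library 1. The miR-144 strands had very few counts, 5, 2 and 0 for 3p and 2, 1 and 0 for 5p. The part of red cell RNA in the level of miR-16-5p was not tested.

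miR-15b-5p, made from the Smc4 intron, followed at 252, 495 and 331 CPM, lowest in library 1 and highest in library 2. Its mean was 359 ± 124 CPM (SD, n = 3), rank 94. miR-15b-3p, its partner strand, had the opposite order, at 182, 69.5 and 99.7 CPM, and a mean of 117 ± 58.5 CPM (SD, n = 3), rank 128. miR-15a-5p, made from the Dleu2 intron, was at 44.9, 30.9 and 15.0 CPM and averaged 30.2 ± 15.0 CPM (SD, n = 3). miR-15a-3p, its partner, was at 11.6, 4.02 and 3.12 CPM. Both strands of miR-15a were highest in library 1 and lowest in library 3.

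The chromosome 11 cluster gave the fewest reads. miR-195a-5p was at 5.98, 26.9 and 18.7 CPM, from 18, 67 and 60 counts, and was lowest in library 1. There were 720, 113 and 159 counts of miR-16-5p, the strand closest to it in sequence, for each count of miR-195a-5p in libraries 1, 2 and 3. miR-497a-5p had 5, 14 and 9 counts, or 1.66, 5.62 and 2.80 CPM, and was the only member with fewer than 10 counts in some library. The ratio of miR-195a-5p to miR-497a-5p was 3.60, 4.79 and 6.67, with Wilson-based intervals that overlap.

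In the order of mean levels, miR-16-5p, miR-15b-5p, miR-15b-3p and miR-15a-5p followed each other in all 3 libraries with ranges that did not overlap. Below that the neighbours did not differ beyond their spread. miR-15a-5p was above miR-195a-5p in 2 of 3 libraries, miR-195a-5p above miR-15a-3p in 2 of 3, and miR-15a-3p above miR-497a-5p in 2 of 3. Ligation and PCR can favour some sequences, so a ratio between strands is one of reads and not necessarily of molecules.

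The seed AGCAGCA was found in 5 more listed miRNAs. miR-322-5p, the mouse counterpart of human miR-424 and encoded on chromosome X, was the only one with counts, at 16.9, 33.3 and 10.9 CPM, which by the mean lies between miR-15a-5p and miR-195a-5p. miR-195b, miR-6342, miR-6353 and miR-6419 had no counts in any library. The 5 members with the seed took 0.385% ± 0.0674 of counts, against 0.387% ± 0.0673 for all 10 strands that carry it (SD, n = 3 each).

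Which of the 2 clusters gave more reads depended on the strand read. The hairpins are shown with both mature strands in capitals, because the 3p strands of miR-16-1 and miR-16-2 differ and so tell the genes apart where miR-16-5p does not:
Mir15b: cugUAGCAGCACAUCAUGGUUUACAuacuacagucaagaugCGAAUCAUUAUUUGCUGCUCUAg
Mir16-1: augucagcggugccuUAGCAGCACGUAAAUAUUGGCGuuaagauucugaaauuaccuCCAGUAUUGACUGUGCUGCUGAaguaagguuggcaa
Mir16-2: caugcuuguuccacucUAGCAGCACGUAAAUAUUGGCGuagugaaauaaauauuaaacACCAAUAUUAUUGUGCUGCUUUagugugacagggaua
Mir195a: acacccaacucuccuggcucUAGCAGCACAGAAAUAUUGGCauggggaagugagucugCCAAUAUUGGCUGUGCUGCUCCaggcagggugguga

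Read by miR-15, the chromosome 3 cluster was ahead. Counts of miR-15b-5p were 5.61, 16 and 22.1 times those of miR-15a-5p in libraries 1, 2 and 3 (Wilson-based 95% intervals 4.68 to 6.74, 12.7 to 20.1 and 16.6 to 29.5). For the 3p strands, miR-15b-3p over miR-15a-3p, the ratios were 15.7, 17.3 and 32.0. Read by the 3p strands of miR-16, the chromosome 14 cluster was ahead. miR-16-2-3p was at 8.31, 7.63 and 11.2 CPM, against 81.8, 83.1 and 75.4 CPM for miR-16-1-3p, so that the ratio of miR-16-2-3p to miR-16-1-3p was 0.102, 0.0918 and 0.149 (0.0675 to 0.153, 0.0576 to 0.146 and 0.105 to 0.211). All libraries gave both directions, and no interval reached 1. Such ratios are taken within a library and do not depend on how libraries are scaled.

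**Figure D2:**
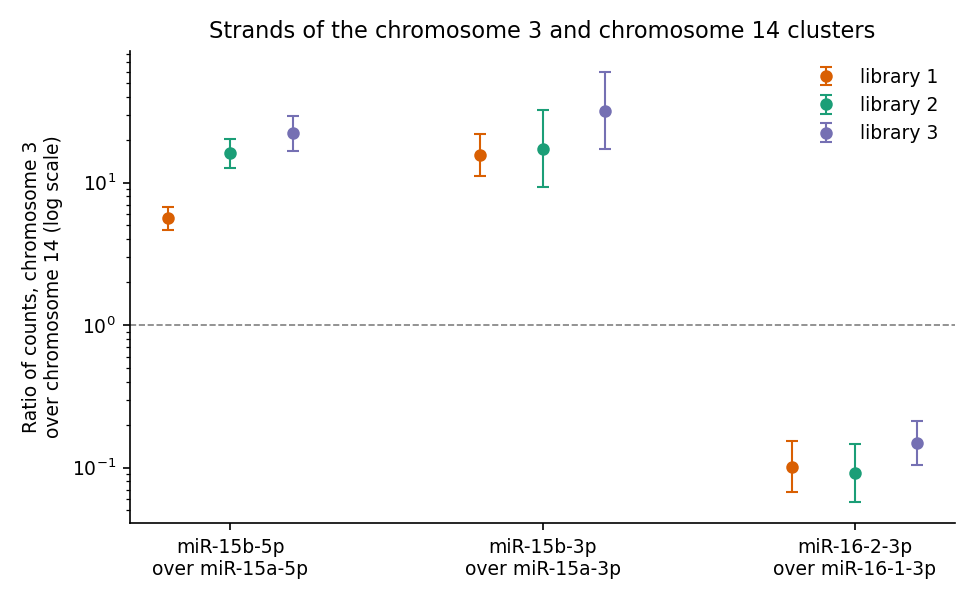
Ratio of counts of a strand from the chromosome 3 cluster over its counterpart from the chromosome 14 cluster, on a log axis, with 1 point per library and Wilson-based 95% intervals; the dashed line marks equal counts. The miR-15 ratios lie between 5.61 and 32.0 and the miR-16 3p ratios between 0.0918 and 0.149.

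Within the chromosome 14 cluster, whose mature strands are 80 bases apart, miR-16-1-3p outnumbered miR-15a-3p by 7.03, 20.7 and 24.2 times and even the main strand miR-15a-5p by 1.82, 2.69 and 5.04 times. In the chromosome 3 cluster, with 83 bases between the strands, miR-15b-5p had 30.3, 64.8 and 29.5 counts for each of miR-16-2-3p, and miR-15b-3p had 22.0, 9.11 and 8.89. On the CPM scale the coefficient of variation between libraries was 5.13% for miR-16-1-3p and 21.1% for miR-16-2-3p. The steadiness of miR-16-1-3p depends on that scale, since with TMM factors its log2 ratios of library 1 to libraries 2 and 3 were -0.64 and -0.75.

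The 5p strand led in miR-15a, miR-15b, miR-195a and miR-497a in every library, and in miR-16 with its 2 hairpins pooled, since these could not be measured apart. The lead was smaller in miR-15a, miR-15b and miR-195a than in miR-16. For miR-15a the 5p share of both strands was 79.4%, 88.5% and 82.8% in libraries 1, 2 and 3 (135, 77 and 48 counts of 5p, 35, 10 and 10 of 3p). For miR-15b it was 58.0%, 87.7% and 76.9% (Wilson 95% intervals 55.3 to 60.6, 85.9 to 89.3 and 74.6 to 79.0). In library 1, 758 counts of 5p stood against 549 of 3p, and the 3 intervals of miR-15b do not overlap. For miR-195a it was 54.5%, 91.8% and 74.1%, from 33 to 81 counts a library, with intervals of 38.0 to 70.2, 83.2 to 96.2 and 63.6 to 82.4. In library 1 the interval of miR-195a includes equal strands.

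miR-16 differed from these. Its 5p share was 98.0%, 97.1% and 97.2%, set against both 3p strands together, with an SD of 0.476 percentage points. For miR-497a the 3p strand had 0, 0 and 1 counts, against 5, 14 and 9 of 5p. The antisense miR-497b, which lies on the opposite strand of the same hairpin, had 20, 8 and 23 counts.

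**Figure D3:**
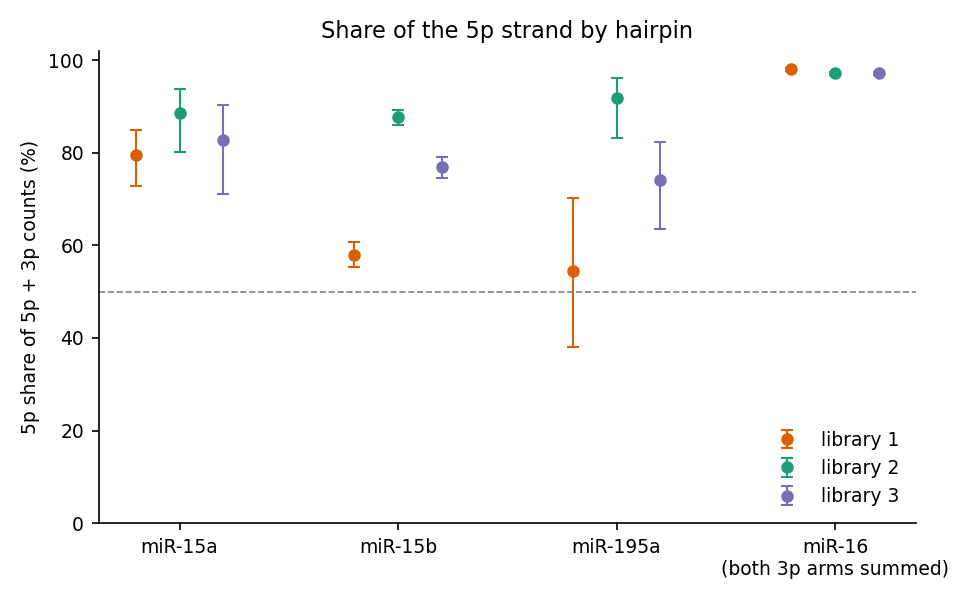
5p share of the 5p and 3p counts of each hairpin in percent, with 1 point per library and Wilson 95% intervals (counting error only); the dashed line marks equal strands. miR-15b and miR-195a spread from 58.0% and 54.5% in library 1 to 87.7% and 91.8% in library 2, while miR-16 stays between 97.1% and 98.0%.

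The strand difference was tested with edgeR's quasi-likelihood test over 157 hairpins, with library as a term, which called 5p higher in 41.4% and 3p higher in 38.9% of hairpins, 80.3% in all, at an adjusted p below 0.05. Among the 3 hairpins of the family in that fit, miR-15a passed, with a log2 ratio of 5p to 3p of 2.36 ± 1.04 (SE, adjusted p = 0.0293 by edgeR), higher in 3 of 3 libraries. This call was lost without library 2 (adjusted p = 0.338) and without library 3 (0.169), each leaving a fit on 2 libraries. miR-15b, at 1.68 ± 0.93 (SE, adjusted p = 0.0880), and miR-195a, at 1.70 ± 1.12 (SE, adjusted p = 0.156), did not pass although 5p was higher in 3 of 3 libraries for both. Without library 1 both passed, miR-15b at 2.28 (adjusted p = 0.000687) and miR-195a at 2.37 (adjusted p = 0.0104). miR-15b also passed with DESeq2 (adjusted p = 0.0336).

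Set against all hairpins, the strands of these 3 were closer to balance than most. The median size of the log2 ratio over the 157 hairpins was 6.24, and only 29, 23 and 24 hairpins had a smaller one than miR-15a, miR-15b and miR-195a. When miR-16-5p was added against the sum of its 3p strands, a step chosen after seeing the data, its log2 ratio was 5.25 ± 0.92 (SE, adjusted p = 7.34e-08 by edgeR). In all 3 the 5p share was lowest in library 1, next in library 3 and highest in library 2, an order seen in 18.5% of the 157 hairpins, while a lowest share in library 1 was seen in 41.4%. For miR-15a the intervals of the libraries overlap, so its order lies within counting error. For miR-195a those of libraries 1 and 3 overlap, at 38.0 to 70.2 and 63.6 to 82.4. Only for miR-15b were all 3 intervals apart.

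Between libraries the members did not move together. All 6 members with a summed count of at least 30 differed by more than counting error in a chi-square test against the miRNA totals, which is close to the 90.1% of 353 miRNAs so called. Adjusted p (chi-square, Benjamini-Hochberg) ran from 5.91e-213 for miR-16-5p to 4.18e-05 for miR-15a-3p, and miR-497a-5p had too few counts for the test. In log2 ratios of library 1 to library 2, miR-16-5p stood at 0.51, miR-15a-5p at 0.54, miR-15a-3p at 1.53 and miR-15b-3p at 1.39. In the other direction were miR-15b-5p at -0.97, miR-195a-5p at -2.17 and miR-497a-5p at -1.76. Against library 3 the same 4 strands were higher in library 1 and the same 3 lower, on this scale.

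Part of this split depends on scaling. TMM factors, which centre the bulk of miRNAs, moved all log2 ratios of library 1 by the same amount, -0.61 against library 2 and -0.86 against library 3. Relative to that shift, miR-16-5p stood at -0.11 and -0.33 and so turned its direction against both libraries, and miR-15a-5p turned against library 2, at -0.078. For miR-15b-3p the ratio of library 1 to library 3, 0.87 by miRNA totals, went to 0.0086 with TMM and to -0.0081 with DESeq2 factors. The lower level of miR-15b-5p and miR-195a-5p in library 1 held, at -1.59 and -2.78 against library 2. miR-497a-5p also stayed lower, at -2.37, but it was not tested. Its intervals in libraries 1 and 2, from 5 and 14 counts, overlap. The higher level of miR-15a-3p in library 1 held as well, at 0.92 and 1.04 against libraries 2 and 3. With these factors the chi-square call of miR-15a-3p was lost (adjusted p = 0.0522). Between libraries 2 and 3 alone, tested on the miRNA totals, miR-16-5p did not pass (chi-square, adjusted p = 0.279), nor did miR-195a-5p (adjusted p = 0.0619). For miR-16-5p this rests on that scale, since its log2 ratio of library 2 to library 3 was 0.027 by miRNA totals and -0.22 with TMM factors.

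**Figure D4:**
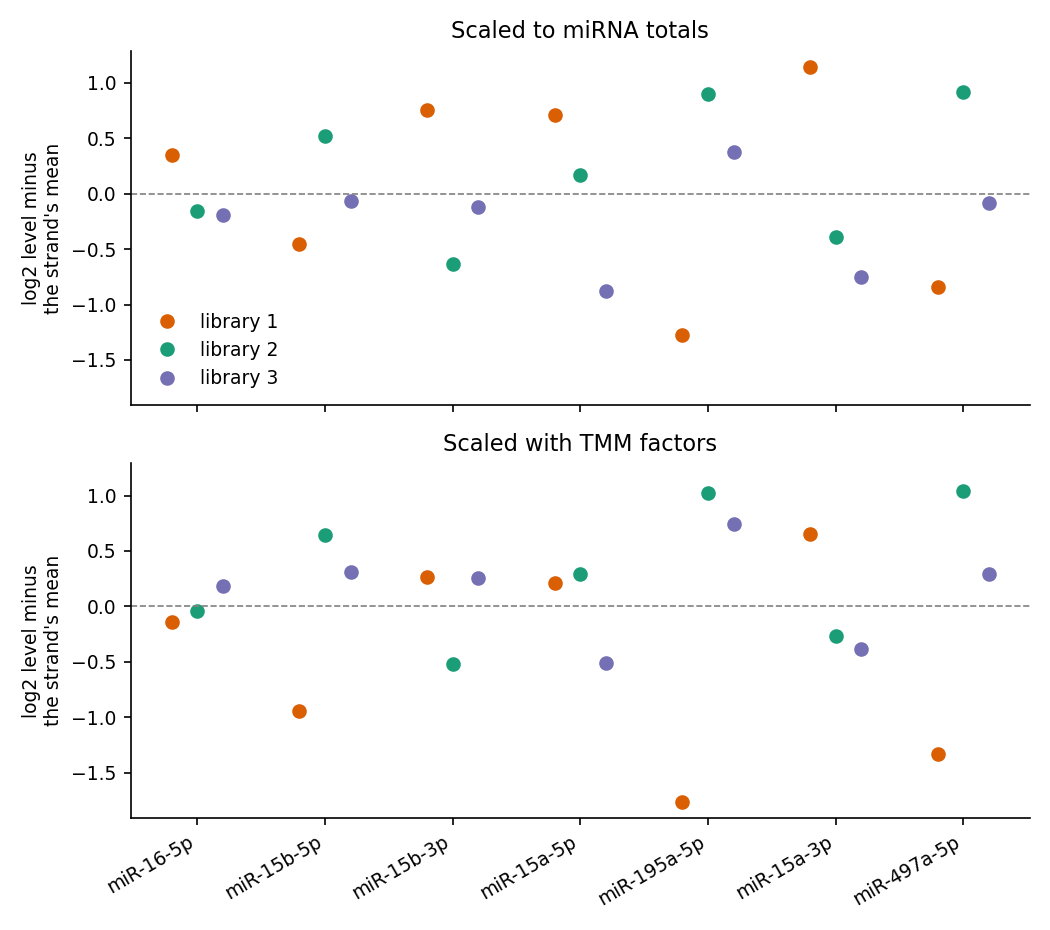
log2 level of each strand minus its own mean over the 3 libraries, scaled to miRNA totals (top) and with TMM factors (bottom), with 1 point per library. miR-15b-5p, miR-195a-5p and miR-497a-5p are lowest in library 1 under both scalings, while the library 1 point of miR-16-5p moves from the highest to the lowest.

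The strands whose profile over the 3 libraries lay nearest to a member were sought among 134 miRNAs averaging 100 CPM or more, by the root mean square distance of centred log2(CPM + 1). Nearest to miR-16-5p were miR-1843b-5p, miR-22-5p and miR-222-5p, at 0.060, 0.079 and 0.10, where the median distance was 0.67. Nearest to miR-15b-5p were miR-374b-5p, miR-23b-3p and miR-221-5p, at 0.21, 0.22 and 0.24, against a median of 0.91. Nearest to miR-15b-3p were miR-130b-5p, miR-192-5p and miR-501-3p, at 0.22, 0.23 and 0.23, against a median of 0.78. Only miR-16-5p, miR-15b-5p and miR-15b-3p among the members reach 100 CPM, and none of them was a neighbour of another. The other members were not candidates. Of these, miR-497a-5p had a distance of 0.14 to miR-15b-5p, below those of the neighbours named. That value rests on the 1 added to CPM, which shrinks the profile of a strand at 1.66, 5.62 and 2.80 CPM. Without it, the log2 ratio of library 1 to 2 was -1.76 for miR-497a-5p and -0.97 for miR-15b-5p. With 3 libraries such distances describe these libraries only.

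Among the members themselves, the smallest distance on this scale was 0.14, between miR-15b-5p and miR-497a-5p, from different chromosomes and with few counts of the second. The 1 added to CPM shrinks the profile of miR-497a-5p, so the place of this pair as the closest is not secure. To a lesser degree this also touches the distances of miR-15a-3p and miR-195a-5p. miR-15b-5p and miR-15b-3p, strands of the same hairpin, were 0.96 apart, and miR-15a-5p and miR-15a-3p 0.36. miR-195a-5p and miR-497a-5p of the chromosome 11 cluster were 0.41 apart, and miR-16-5p was 0.46 from miR-15a-5p and 0.61 from miR-15b-5p.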

How the data were processed

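Small RNA of exosome pellets was extracted with TRIzol and made into libraries by adapter ligation and PCR (NEBNext kit), read as single ends of 50 bases, per the labels' protocols. The submitters' processing notes name bcl2fastq, BWA and mm10, with no version. Trimming, mismatch limits, strand settings, the miRNA release and the handling of reads with several matches are not given in the sources used here. The deposited tables hold a count for each miRNA, a whole number, used in all tests, and an RPM, which is the count per 1000000 of a denominator of 14047692, 13995845 and 14002577, of which miRNA counts are 21.4%, 17.8% and 22.9%.

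From the deposited counts, CPM was computed on the miRNA total of each library. The 3 libraries form 1 group. Libraries were compared with a chi-square test per miRNA (summed count at least 30), and strands with edgeR's quasi-likelihood test (R 4.3.3, edgeR 4.0.16) on hairpins whose arms share a name, with library as a term, a summed count of at least 60 and the miRNA totals as library sizes, both with Benjamini-Hochberg adjustment. 749 hairpins had such names. Copy-numbered arms such as miR-16-1-3p have no such match. SEs were derived from the F statistic. Shares carry Wilson intervals (scipy 1.17.1) and CPM exact Poisson ones. Both tests were also run on simulated data. For the chi-square test these were Poisson counts with known library sizes, so that run does not bear on scaling or on spread beyond counting error. DESeq2 1.42.0, other filters and other scalings were alternatives.

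Named beside the members were their partner arms, listed miRNAs with the same seed in RefSeq (all 16 names matched) and, for the 3 highest members, the 3 miRNAs nearest in profile. The members and lists were chosen with earlier results of these data known.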

Additional observations from a re-analysis of the deposited data

How the results depend on the processing

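With each library left out the family share ran from 0.355% to 0.423%. With 3 libraries, leaving 1 out cannot move a mean by 1 SD, so this range only describes the spread. With TMM factors and with DESeq2 size factors the share was 0.395%, and each member's mean stayed within 1 SD. Those factors were set to the same geometric mean as the miRNA totals, which limits how far a mean can move. On the authors' RPM, whose denominators hold other reads, the family came to 0.0823% and the means to 714 for miR-16-5p, 72.6 for miR-15b-5p, 24.8 for miR-15b-3p, 6.18 for miR-15a-5p, 3.45 for miR-195a-5p, 1.31 for miR-15a-3p and 0.666 for miR-497a-5p. By chi-square, 318 of 353 miRNAs tested were called. With a library left out the count ran from 177 (without library 1, 288 tested) to 284 (without library 2, 327 tested). Otherwise it ran from 314 of 353 to 370 of 886, the latter with no filter on the summed count and so a lower share. Strand calls were 126 of 157 hairpins tested. With a library left out they ran from 99 of 151 (without library 2) to 122 of 142 (without library 1). Otherwise they ran from 126 of 157 to 188 of 262, the latter at a summed count of at least 10 and so a lower share. They were 126 without the replicate block. Dropping that block changed no strand call of the family. The direction of miR-16-5p turned in the log2 ratio of library 1 to 2 (-0.11 with TMM, -0.14 with DESeq2 factors), of library 1 to 3 (-0.33 and -0.34) and of library 2 to 3 (-0.22, -0.20 and, by RPM, -0.34). So did miR-15a-5p for library 1 to 2 (-0.078 and -0.12) and miR-15b-3p for library 1 to 3 (-0.0081 with DESeq2 factors). The cause was not tested. Counts under about 30 in a library limit miR-497a-5p, miR-15a-3p and, in library 1, miR-195a-5p.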
